A study of Mus musculus with 6 samples.

Results

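The regions described here are the 478 ASH2L peaks whose midpoint lay just downstream of a transcript start, out of 2464 ASH2L peaks mapped in mouse embryonic stem cells (ESCs), of which 2452 were on chromosomes 1 to 19. A peak on these chromosomes was taken when its midpoint lay more than 100 bp and up to 1000 bp downstream, in the direction of transcription, of any start of a GENCODE vM21 transcript and not within 1000 bp upstream to 100 bp downstream of any start. The 1173 peaks inside that latter window are called promoter peaks below, and the remaining 801 peaks are called other peaks.

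Chromatin was profiled by CUT&RUN, in which an antibody directs a nuclease to its target in permeabilised cells and the DNA released by the cut is sequenced. The experiment held 6 samples in 3 groups of 2 biological duplicates, and all cells were E14, a mouse ESC line, grown in serum and LIF and given doxycycline for 48 h, the parental cells included. HA-ASH2L E14 cells, which carried an HA-tagged ASH2L transgene that doxycycline switches on, were profiled with anti-HA in 1 group and with anti-H3K4me3 in another, and parental E14 cells without the transgene were profiled with anti-HA in the remaining group. The labels call the tagged line a knock-in, whereas the methods describe a piggyBac transgene and the picking of single colonies, and whether both duplicates came from the same clone is not given in the sources used here. The duplicates were merged before peak calling and the list gives 1 value per peak, so no spread between cultures can be given, and parental anti-HA profiles were not analysed here. Intervals below are 95% intervals over peaks (Wilson for shares, order statistics for medians), which describe the list and not the error between cultures.

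ASH2L is a core subunit shared by the MLL/SET1 family of histone methyltransferases, where it works with WDR5, RBBP5 and DPY30 to place methyl groups on lysine 4 of histone H3. The trimethylated form, H3K4me3, marks the starts of active genes and of many CpG islands, and typically covers the nucleosomes that flank the start, with the first nucleosomes inside the gene among the most strongly marked. The stretch downstream of a start holds the first exon, the first splice donor and the beginning of the first intron, where RNA polymerase II pauses and the first nucleosomes inside the gene sit.

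The sequence under the summits of these peaks is shown first, since CpG content was one of the features that set them beside the promoter peaks. Each run below is an ASH2L summit with 50 bases on either side, read from GRCm38 in the direction of transcription, in lower case with every CG dinucleotide in capitals. Only windows that touched no exon outside coding sequence were eligible, which left 259 of 478 peaks. The first set comprises the 8 eligible peaks with the highest p-value score, located at Gm10800 (chr2:98667122-98667222, minus strand), Gm10801 (chr2:98662610-98662710, plus strand), Gm10718 (chr9:3023476-3023576, plus strand), Gm10722 (chr9:3001369-3001469, plus strand), Nipa1 (chr7:56019200-56019300, minus strand), Insm2 (chr12:55599592-55599692, plus strand), Rnpep (chr1:135283869-135283969, minus strand) and Ypel2 (chr11:86993385-86993485, minus strand).
Gm10800: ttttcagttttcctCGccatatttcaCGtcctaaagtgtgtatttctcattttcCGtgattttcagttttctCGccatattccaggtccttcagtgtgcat
Gm10801: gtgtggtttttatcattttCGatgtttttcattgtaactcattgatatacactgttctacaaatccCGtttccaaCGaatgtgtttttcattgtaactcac
Gm10718: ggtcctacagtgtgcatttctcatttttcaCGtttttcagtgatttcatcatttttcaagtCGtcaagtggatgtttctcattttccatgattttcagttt
Gm10722: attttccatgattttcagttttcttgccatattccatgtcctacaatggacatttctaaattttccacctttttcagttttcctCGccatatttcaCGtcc
Nipa1: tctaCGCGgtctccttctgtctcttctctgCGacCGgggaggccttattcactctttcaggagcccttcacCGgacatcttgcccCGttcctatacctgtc
Insm2: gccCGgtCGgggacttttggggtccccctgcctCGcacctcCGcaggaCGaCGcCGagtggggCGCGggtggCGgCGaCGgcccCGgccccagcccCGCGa
Rnpep: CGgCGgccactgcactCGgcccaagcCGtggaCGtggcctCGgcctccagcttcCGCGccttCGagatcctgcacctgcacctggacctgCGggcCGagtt
Ypel2: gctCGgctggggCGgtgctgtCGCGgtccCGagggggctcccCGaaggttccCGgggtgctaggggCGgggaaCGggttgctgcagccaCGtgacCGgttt

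The windows of the 4 predicted genes held 2 to 4 CG dinucleotides at a GC content of 32.7% to 39.6%, and lay largely in sequence that the reference genome soft-masks as repeats (100% of the bases at Gm10800, Gm10718 and Gm10722, 38.6% at Gm10801). Nipa1 had 6 CG dinucleotides at 56.4% GC, and the windows of Insm2, Rnpep and Ypel2 had 15, 11 and 11 at 80.2%, 71.3% and 73.3% GC with no masked base. The second set comprises the 7 eligible windows at genes of chosen chromatin, splicing and cell cycle lists, because these genes are named in the results below. They were located at Ezh2 (chr6:47594352-47594452, minus strand), Kdm1a (chr4:136602110-136602210, minus strand), Rbl1 (chr2:157204309-157204409, minus strand), Sirt1 (chr10:63338821-63338921, minus strand), Srsf4 (chr4:131874172-131874272, plus strand), Tra2b (chr16:22265518-22265618, minus strand) and Wdr5 (chr2:27515298-27515398, plus strand).
Ezh2: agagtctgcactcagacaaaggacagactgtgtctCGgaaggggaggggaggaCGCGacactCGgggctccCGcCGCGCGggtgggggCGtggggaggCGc
Kdm1a: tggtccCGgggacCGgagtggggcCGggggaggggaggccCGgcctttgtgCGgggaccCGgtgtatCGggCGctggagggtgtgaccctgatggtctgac
Rbl1: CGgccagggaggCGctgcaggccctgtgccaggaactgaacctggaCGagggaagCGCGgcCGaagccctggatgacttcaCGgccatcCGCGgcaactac
Sirt1: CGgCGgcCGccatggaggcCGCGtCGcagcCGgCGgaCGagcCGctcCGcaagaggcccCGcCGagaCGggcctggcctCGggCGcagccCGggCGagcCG
Srsf4: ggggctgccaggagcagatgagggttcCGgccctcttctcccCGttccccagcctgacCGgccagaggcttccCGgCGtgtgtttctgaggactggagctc
Tra2b: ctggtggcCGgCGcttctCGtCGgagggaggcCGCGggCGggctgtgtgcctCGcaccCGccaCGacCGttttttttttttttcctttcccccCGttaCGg
Wdr5: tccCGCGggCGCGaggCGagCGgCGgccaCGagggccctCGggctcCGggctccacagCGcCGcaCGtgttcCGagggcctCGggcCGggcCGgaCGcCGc

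In this second set the windows at Rbl1 and Sirt1 lay in coding sequence and the other 5 in introns. The number of CG dinucleotides ran from 5 at Srsf4 to 19 at Sirt1 and Wdr5, and GC content from 65.3% at Tra2b to 83.2% at Sirt1 and Wdr5.

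After removal of redundant tags, 25677963 tags entered the ASH2L peak calling and 27328071 the H3K4me3 peak calling, both from merged duplicates. The downstream peaks, 478 of 2464 ASH2L peaks, contained 24395 of the 102077 tags in ASH2L peaks (23.9%), of which the single peak at Gm26917 alone had 5016 tags. Without Gm26917 in both counts the share of tags was 20%. As a check of the labelled cell type, an H3K4me3 peak covered a start of a protein-coding transcript in 4 of 10 ESC genes (Esrrb, Klf4, Zfp42 and Tfcp2l1) and in 2 of 6 genes of other cell types (Myod1 and Krt14). No such peak was listed at Pou5f1, Nanog, Sox2, Tdgf1, Dppa5a or Utf1, so this list does not by itself set ESC genes apart from the others. The share over all protein-coding genes is not given here, so these counts have no background to be read against.

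Downstream peaks lay close to the start. The distance from the start to the midpoint, which the choice of the peaks limits to between 100 and 1000 bp, had a median of 253 bp (239 to 271), with quartiles of 180 and 412.5 bp. In all, 236 peaks (49.4%, 44.9% to 53.8%) had their midpoint up to 250 bp from the start (the near band), 158 (33.1%, 29.0% to 37.4%) lay over 250 and up to 500 bp from it (the middle band) and 84 (17.6%, 14.4% to 21.2%) over 500 and up to 1000 bp (the far band). Counted by the nearest start alone, 622 of 2452 ASH2L midpoints (25.4%) fell over 100 and up to 1000 bp downstream, against 245 (9.99%) over the same distances upstream and 784 (32%) within 100 bp on either side. In the H3K4me3 list 15.2% of 58571 midpoints fell in the downstream stretch and 6.43% in the upstream stretch, so that both lists held more midpoints after than before the starts.

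**Figure D1:**
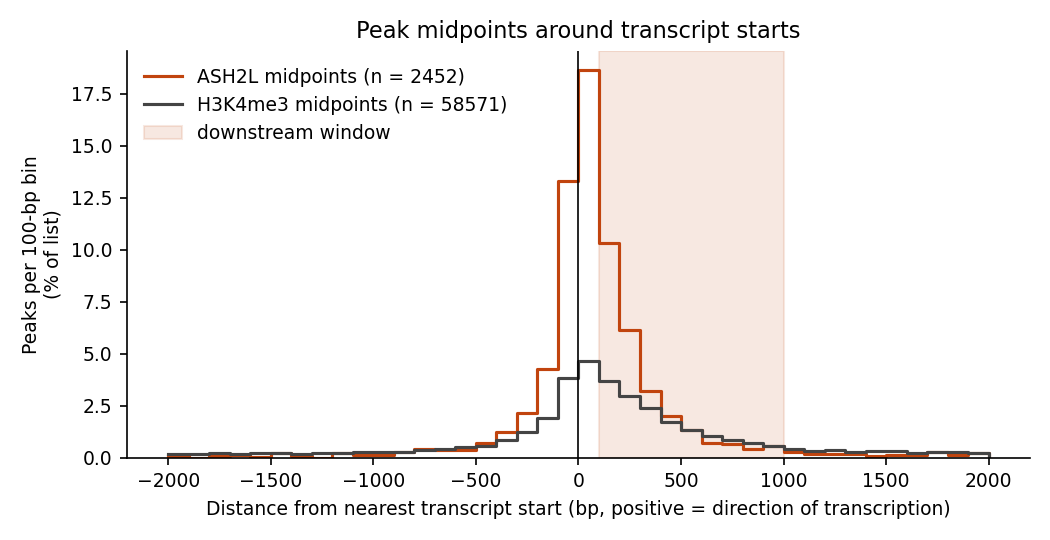
Midpoints of ASH2L and H3K4me3 peaks by distance from the nearest transcript start, as percent of each list per 100-bp bin, with the downstream window shaded. The ASH2L line is higher on the downstream than on the upstream side, with 25.4% of 2452 midpoints over 100 and up to 1000 bp downstream and 9.99% over the same distances upstream.

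The nearest of these peaks belonged to Isy1, which encodes a spliceosome factor, at the edge of the window, followed by Prkar2a, a regulatory subunit of protein kinase A, and Vdac3, a channel of the outer mitochondrial membrane, both at 102 bp. All 3 spanned their start and overlapped an H3K4me3 peak, with 33 tags at Isy1, 53 at Prkar2a and 42 at Vdac3. The farthest were at Bloc1s3, a subunit of a complex for lysosome-related organelles, at 992 bp, the olfactory receptor pseudogene Olfr333-ps1 at 988 bp, and Mlh3, a DNA mismatch repair gene, at 966 bp. Bloc1s3 had 34 tags and an H3K4me3 peak, whereas Olfr333-ps1 with 19 tags and Mlh3 with 20 tags had none. Just outside the near edge were the peaks at Pdzd2 (99 bp, 36 tags, 4.41-fold) and Tmod2 (100 bp, 36 tags, 5.35-fold), both with H3K4me3. Just outside the far edge were those at Gm34921 (1011 bp, 32 tags, 6.30-fold, without H3K4me3) and at Sin3a, the scaffold of a histone deacetylase co-repressor (1038 bp, 61 tags, 4.26-fold, with H3K4me3).

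Most downstream peaks were wide enough to reach back over the start. Their median width was 779.5 bp (763 to 805), and 349 of 478 (73.0%, 68.9% to 76.8%) spanned the start they were assigned to, whereas the other 129 began downstream of it. The share that spanned the start was 99.6% in the near band, 68.4% in the middle band and 7.14% in the far band. Among promoter peaks 92.9% spanned their nearest start. Median widths were 776, 787 and 774.5 bp from the near to the far band, so that this trend and the contrast with promoter peaks restate the distance that chose the peaks. The summit, the position of highest tag pileup, was at a median of 251.5 bp (232 to 279) from the start, with quartiles of 135 and 449.75 bp, and ranged from -806 bp, upstream of the start, to 1100 bp. In 79 peaks (16.5%, 13.5% to 20.1%) the summit itself lay within 1000 bp upstream to 100 bp downstream of that start. When the summit was used in place of the midpoint to choose peaks, 388 of 478 (81.2%) were chosen again.

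First exons and first introns held similar numbers of midpoints. The midpoint fell in the first intron of a transcript from the assigned start in 225 peaks (47.1%, 42.6% to 51.6%) and in the first exon in 220 (46.0%, 41.6% to 50.5%). A further 26 (5.44%) were in a later exon or intron and 7 (1.46%) past the end of the transcript. Which of both places held more depended on the starts used, with 48.9% in the first exon and 47% in the first intron for starts of protein-coding transcripts, and 56.4% and 40.6% for RefSeq transcripts. First-exon peaks had a median distance of 216 bp (195 to 241) and first-intron peaks one of 268 bp (244 to 290). In the near band the first exon held 56.4% and the first intron 42.8% of the peaks, in the middle band these shares were 38.0% and 55.1%, and in the far band 32.1% and 44%. The assigned transcripts with an intron had a median first exon of 206.5 bp, and 365 of these 436 peaks (83.7%, 80.0% to 86.9%) spanned the first splice donor, against 73.6% of promoter peaks. The summit lay a median of 13.5 bp from the donor (-17 to 38, quartiles of -155 and 195.5 bp, negative when upstream), whereas in promoter peaks this median was -239 bp. First exons had like medians in both classes (206.5 and 194 bp), so that these differences from promoter peaks, in donor spanning and in distance from the donor, restate the distance from the start that chose the peaks.

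**Figure D2:**
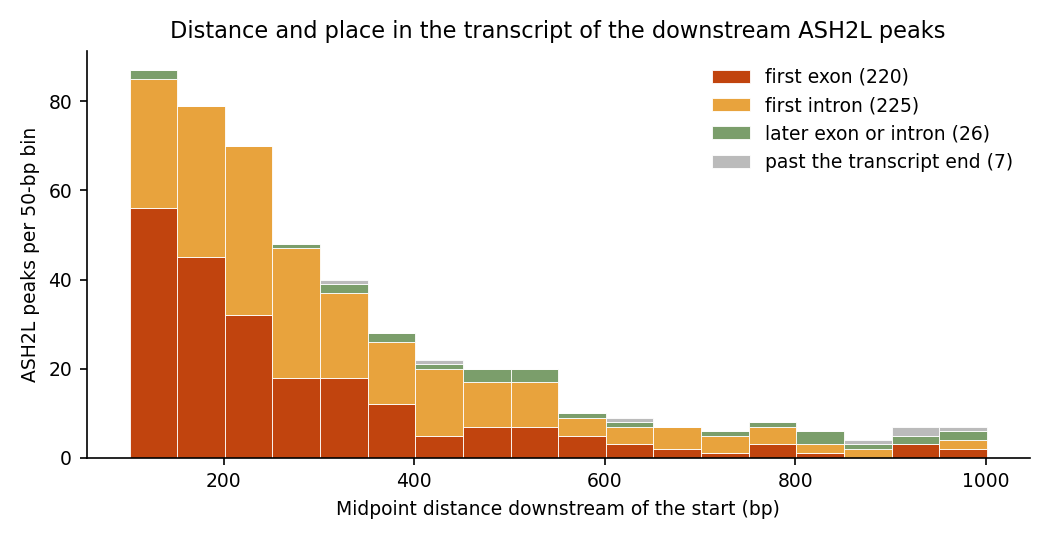
Distance of the 478 midpoints from the start in 50-bp bins, stacked by the place of the midpoint in the transcript. First-exon (220) and first-intron (225) peaks make up most of the bins near the start, the median is 253 bp and few peaks lie over 500 bp away.

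**Figure D3:**
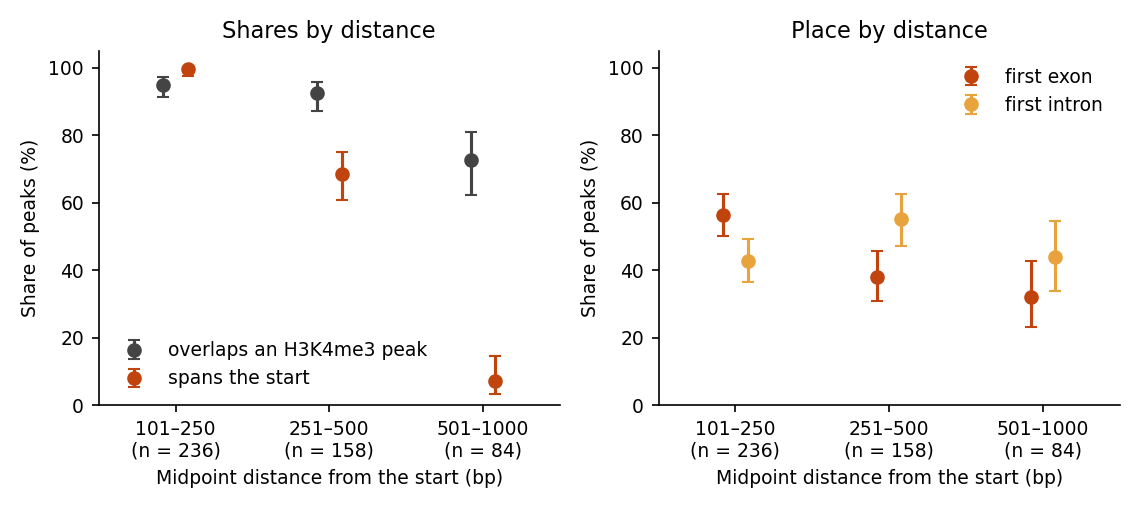
Shares of downstream peaks by distance from the start, with 95% Wilson intervals as bars. The share with H3K4me3 was 94.9%, 92.4% and 72.6% from near to far and the share spanning the start was 99.6%, 68.4% and 7.14% (left), and the first exon held 56.4%, 38.0% and 32.1% (right).

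Across all annotated transcripts, 188 summits (39.3%) were in introns only, 122 (25.5%) in coding sequence, 117 (24.5%) in UTRs, 38 (7.95%) in exons of noncoding transcripts and 13 (2.72%) between genes. A protein-coding gene owned the assigned start of 444 peaks (92.9%, 90.2% to 94.9%). Processed pseudogenes and lincRNAs had 9 peaks each, antisense genes 4, and miRNA, TEC (an unclassified type) and processed transcript genes 3 each, with 2 at transcribed unprocessed pseudogenes and 1 at a misc_RNA gene. The start belonged to a protein-coding transcript in 319 peaks (66.7%), and in 125 more it belonged to another transcript of a protein-coding gene, such as a retained intron or a decay-targeted transcript. It was the most upstream start of its gene in 165 peaks (34.5%, 30.4% to 38.9%), and in the other 313 it lay a median of 122 bp (94 to 164) inside the gene. A single start fell in the window of 195 peaks (40.8%), and 30 peaks (6.28%) had starts on both strands. In total 477 genes had a downstream peak, only Gm10718 had more than 1, and 12 of these genes also had a promoter peak.

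Most downstream peaks carried H3K4me3. Of 478 peaks, 431 (90.2%, 87.2% to 92.5%) overlapped an H3K4me3 peak by at least 1 bp, against 73.8% of all 2452 ASH2L peaks on these chromosomes. The share was 95% (93.6% to 96.1%) in promoter peaks and 33% (29.8% to 36.3%) in other peaks, so that downstream peaks stood between them and close to promoter peaks. When only H3K4me3 peaks at or above the median fold enrichment of their list were counted, 40.8% of the downstream peaks had one (36.5% to 45.3%), against 40.6% of promoter peaks, 15.1% of other peaks and 32.3% of all ASH2L peaks. This filter does not select by tags or width. The median fold enrichment was 6.13 for H3K4me3 peaks at downstream peaks and 6.46 in their whole list, so 40.8% is not a share with stronger marking. The share with any H3K4me3 peak was 94.9% (91.3% to 97.1%) in the near band, 92.4% (87.2% to 95.6%) in the middle band and 72.6% (62.3% to 81%) in the far band. First-exon and first-intron peaks had like shares, 92.7% and 92.9%. Among the 34 peaks at genes that are not protein-coding the share was 67.6% (50.8% to 80.9%), against 91.8% at starts of protein-coding transcripts.

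The H3K4me3 peaks at these sites were wider than the whole H3K4me3 list, but not wider than those at promoter peaks. They were picked by overlap with an ASH2L peak, a choice that itself favours wide peaks over the whole list. Their median width was 3018 bp (2879 to 3189), with a median of 505 tags and a fold enrichment of 6.13, whereas all H3K4me3 peaks had medians of 1456 bp, 113 tags and 6.46-fold. At promoter peaks the corresponding medians were 3281 bp, 572 tags and 6.06-fold. The H3K4me3 peak contained the start in 428 of 431 cases (99.3%), and its edges lay at medians of -1113 bp and 1746 bp from the start, negative when upstream. At promoter peaks the edges were at medians of -1366 bp and 1756.5 bp.

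Within the H3K4me3 peak, every one of the 431 ASH2L summits lay inside its edges, and most lay near the middle. On a scale from 0 at the upstream edge to 1 at the downstream edge, the median position was 0.488 (0.469 to 0.506), with quartiles of 0.394 and 0.581 and a range of 0.135 to 0.944. With the H3K4me3 peak cut into 3 equal parts, the middle part held 322 summits (74.7%, 70.4% to 78.6%), the upstream part 59 (13.7%) and the downstream part 50 (11.6%, 8.91% to 15%). In promoter peaks the median was 0.432 (0.421 to 0.445), with 73.4% in the middle, 21.8% in the upstream and 4.86% in the downstream part. Counted from the nearer edge, where 0.5 is the centre, the medians were 0.407 (0.395 to 0.417) and 0.397 (0.389 to 0.403), so that the classes differed along the direction of transcription, which the choice of the peaks sets, more than in closeness to the centre. The position moved with distance from the start, which chose the peaks, and its median was 0.449 in the near band, 0.493 in the middle band and 0.583 in the far band.

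The H3K4me3 summit lay upstream of the ASH2L summit in most pairs, on a measure that the choice of the peaks enters, since it places the ASH2L midpoint downstream of the start and sets no such limit on H3K4me3. Its distance from the ASH2L summit, negative when upstream, had a median of -122 bp (-182 to -75) in downstream peaks and of -27 bp (-44 to -9) in promoter peaks. With peaks chosen by their summit the median was -200 bp, and among ASH2L peaks at or above the median fold enrichment it was -77.5 bp. It was downstream of the ASH2L summit in 155 of 431 downstream peaks (36.0%, 31.6% to 40.6%) and in 44.2% of promoter peaks. Regardless of side, the summits were a median of 235 bp (211 to 259) apart, and 231 (53.6%, 48.9% to 58.3%) were within 250 bp of each other, against 184 bp and 63.6% in promoter peaks. From the start, the H3K4me3 summit was at a median of 106 bp (53 to 179) downstream, while the ASH2L summit of all 478 peaks was at 251.5 bp. Across the 431 pairs, tags in both lists had a Pearson r of 0.27 on the log2 scale and a Spearman rho of 0.29, and fold enrichments had 0.37 and 0.34. The points share libraries and base composition, and these values are descriptions across sites.

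**Figure D4:**
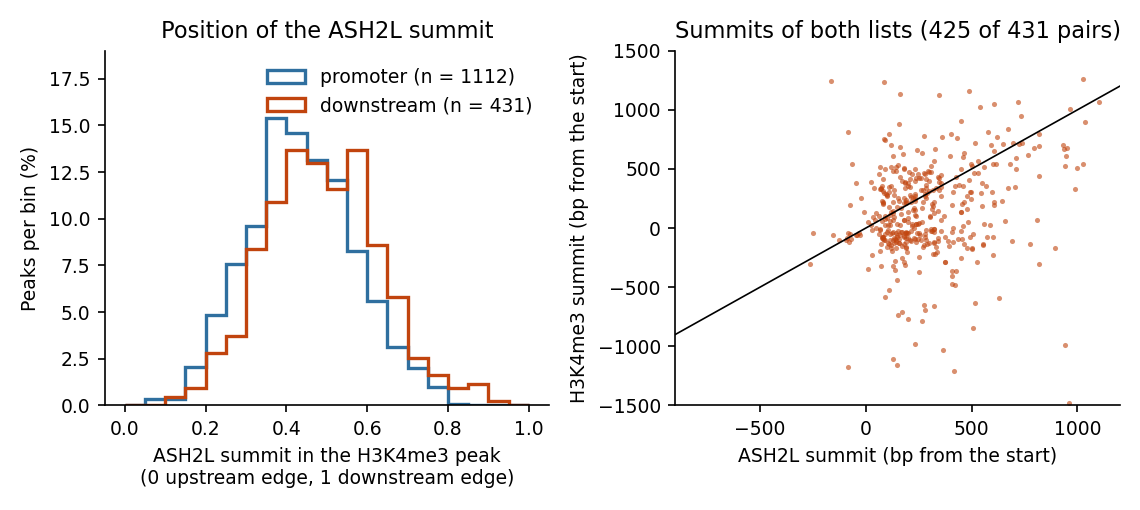
Position of the ASH2L summit within the overlapping H3K4me3 peak in downstream (431) and promoter (1112) peaks as percent per bin (left), and H3K4me3 against ASH2L summit as distance from the start for 425 of 431 pairs within the axes, with the line of equal position (right). The downstream histogram (median 0.488) is shifted toward the downstream edge from the promoter one (0.432), and most points on the right lie below the line.

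The enrichment of downstream peaks was close to that of promoter peaks. Median fold enrichment was 5.23 (5.09 to 5.37) against 5.30 (5.21 to 5.38), median tags were 35 against 36, and the median p-value score, which is -10 times log10 of the p-value of the peak caller, was 65.2 against 66.1. Other peaks were narrower, with a median of 589 bp and 25 tags, at a fold enrichment of 5.39. Along the distance, median fold enrichment was 5.39 in the near band, 5.09 in the middle band and 5.01 in the far band. Members ranged from 394 bp to 6001 bp in width, from 19 to 5016 tags and from 2.59-fold to 13.01-fold.

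Summit windows of downstream peaks were rich in CpG. The median ratio of observed to expected CpG was 0.845 (0.819 to 0.868) in the windows of 50 bases to either side of the summit, against 0.860 in promoter peaks, 0.249 in other peaks and 0.721 in all peaks. Median GC content was 71.3%, 70.3%, 50.5% and 65.3% in the same order. The downstream windows held a median of 10 CG dinucleotides, and 12 of 478 (2.51%) held none, against 27.6% of other peaks. The CpG ratio was 0.890 in the near band, 0.820 in the middle band and 0.730 in the far band. First-exon peaks had a median of 0.878 and first-intron peaks one of 0.797.

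**Figure D5:**
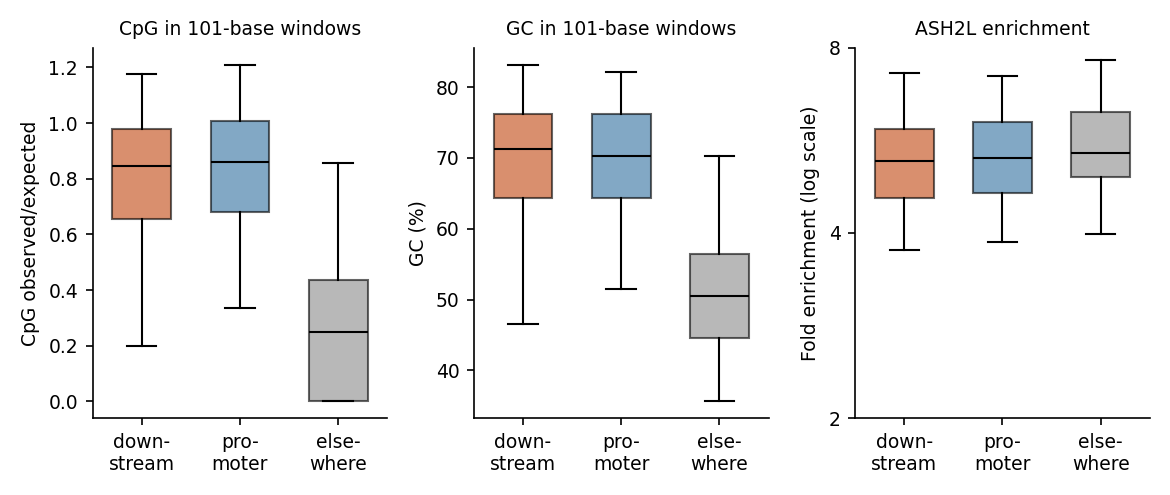
CpG observed over expected, GC content and ASH2L fold enrichment (log2 axis) of downstream (478), promoter (1173) and other (801) peaks, with boxes at the quartiles, the median as a line and whiskers at the 5th and 95th percentiles. Downstream and promoter boxes nearly coincide, with CpG medians of 0.845 and 0.860, while other peaks have a median of 0.249 at a like fold enrichment.

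Short motifs were searched for as exact letters in the same summit windows. The GC box GGGCGG, bound by SP and KLF factors, was found on either strand in 137 of 478 downstream windows (28.7%, 24.8% to 32.9%), in 41.4% of promoter windows, 7.49% of other windows and 27.9% of all windows. The ETS-type motif CCGGAAG was in 2.30% of downstream, 5.88% of promoter and 3.34% of all windows, and the E-box CACGTG in 3.56%, 1.79% and 2%. The YY1-type motif AAGATGGC and the NRF1-type motif GCGCATGC were each in 2 downstream windows (0.418%), against 1.28% and 1.02% of promoter windows and 0.816% and 0.612% of all windows. TATAAA was in 4 downstream windows (0.837%), 0.597% of promoter, 3.87% of other and 1.71% of all windows. On the transcript strand, the splice donor letters GTGAGT were in 19 downstream windows (3.97%) and GTAAGT in 5 (1.05%), against 4.12% and 1.18% of all windows. Matches of different motifs may overlap, for example CACGTG and GTGAGT through the letters GTG. A match is a run of letters in this window and says nothing of binding.

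The 10 downstream peaks with the highest score fell into a repeat-rich or unusually deep group and a group at ordinary genes. Gm26917, annotated as a lincRNA, lay at chr17:39842883-39848883. Its peak had the most tags (5016), the highest score (2400.65), the greatest width (6001 bp) and the lowest fold enrichment (2.59). The H3K4me3 peak there, of 6068 bp, had 3666 tags at 2.69-fold, the most tags of any H3K4me3 peak at a downstream peak. Gm10800 (chr2:98666116-98667701) and Gm10801 (chr2:98662113-98663174) had 933 and 610 ASH2L tags, 9.95-fold and 9.09-fold, with 362 and 170 H3K4me3 tags. On chromosome 9, Gm10718 had peaks of 69 tags (13.01-fold) and 77 tags (8.82-fold) without H3K4me3, and Gm10722 one of 44 tags (11.78-fold) with an H3K4me3 peak of 21 tags. The bases of these chromosome 2 and chromosome 9 peaks were 59.5% to 100% soft-masked, and those of Gm26917 5.00%. In all 10 downstream peaks (2.09%, 1.14% to 3.81%) were over 50% masked, against 0.767% of promoter and 9.36% of other peaks, and 4 of these 10 overlapped H3K4me3. The part of mapping in repeats or other multi-copy sequence in these values, those of Gm26917 included, was not tested. Without the 10 peaks the share with H3K4me3 was 91.2%, the median distance 250 bp and the median position in the H3K4me3 peak 0.488.

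The high-scoring peaks at ordinary genes all overlapped H3K4me3. Dennd5b, which encodes a regulator of Rab GTPases, had 90 tags at 6.27-fold with its midpoint at 246 bp and its summit at -80 bp from the start. Nipa1, a magnesium transporter, had 58 tags at 7.56-fold with its midpoint 543 bp downstream in the first exon and its summit at 704 bp in an intron. At Insm2, a zinc finger transcription factor, 82 tags at 7.12-fold were centred 130 bp downstream, with a summit in coding sequence. Elovl7, an elongase of very long chain fatty acids, had 50 tags at 7.82-fold, centred 195 bp downstream. The highest fold enrichments among all 478 peaks were those of Gm10718 (13.01), Gm10722 (11.78), Gm10717 (10.79), Gm10800 (9.95) and Gm21738 (9.12), all in peaks over 50% masked.

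The 47 downstream peaks without a listed H3K4me3 peak lay farther from the start, with a median distance of 490 bp (361 to 604) against 244 bp (231 to 259) in those with one. They were poorer in CpG, with a median ratio of 0.417 (0.238 to 0.732) against 0.861 (0.831 to 0.889), and 36.2% spanned the start, against 77.0%. Median fold enrichment was 5.37 without and 5.23 with H3K4me3, and median tags were 30 and 35. The highest scores among them were at Gm10718 (186.26 and 186.07), Gm9245 (138.15, 78 tags), 4931408C20Rik (94.12, 46 tags) and St6galnac1, a sialyltransferase gene (90.69, 30 tags). The summit windows of 4931408C20Rik and St6galnac1 held no CG dinucleotide and that of Gm9245 held 1. Throughout the text, without H3K4me3 means without a listed peak, and whether the mark itself was absent was not tested. The same list held no peak over a start of Pou5f1, Nanog or Sox2.

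Gene groups were read against the background that 443 of 20780 protein-coding genes on these chromosomes (2.13%) had a downstream peak, and 477 of 51121 genes of any type (0.933%). A promoter peak lay at 1201 of the same 20780 protein-coding genes. Genes of the histone methylation machinery were among those with a downstream peak. Of 21 MLL/SET1 complex subunits 1 had a downstream peak: Wdr5, the WD40 subunit that binds the catalytic protein, with 46 tags at 5.37-fold, centred 131 bp downstream in the first intron, inside an H3K4me3 peak of 6214 bp. Dpy30, another subunit gene of this list that is named here after its values were seen, had a promoter peak. Of 6 listed histone lysine demethylase genes, 2 had downstream peaks. Kdm1a, a demethylase of mono- and dimethylated H3K4, had 34 tags at 4.05-fold, centred 117 bp downstream in the first intron, with its summit at 0.199 of an H3K4me3 peak of 5979 bp. Kdm2b, known for its binding to CpG islands with a Polycomb complex, had 42 tags at 3.95-fold, centred 856 bp downstream of an internal start and without H3K4me3, and it also had a promoter peak. Promoter peaks lay at 3 of the 6 demethylase genes, Kdm2a, Kdm2b and Kdm5a. Of 29 Polycomb subunits 1 had a downstream peak, Ezh2, the methyltransferase for lysine 27 of histone H3, with 82 tags at 5.41-fold. The Ezh2 peak was 1703 bp wide, with its midpoint 122 bp and its summit 628 bp downstream, and the H3K4me3 summit lay -1222 bp from the ASH2L summit, on its upstream side.

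Other chromatin and RNA genes were represented by single peaks. Baz2b, a bromodomain protein and 1 of 39 chromatin remodeller genes, had 29 tags at 4.78-fold, centred 235 bp downstream of a start 84247 bp inside the gene. Sirt1, a deacetylase and 1 of 27 histone acetylation genes, had 33 tags at 6.13-fold, centred 117 bp downstream in the first exon. Of 51 splicing factor genes 2 had downstream peaks, both centred in the first intron: Srsf4 with 57 tags at 4.69-fold at 336 bp and an H3K4me3 peak of 6246 bp, and Tra2b with 28 tags at 4.91-fold at 377 bp and none. Rbl1, the retinoblastoma-like protein p107 and 1 of 40 cell cycle genes, had 31 tags at 6.73-fold at 192 bp. No gene had a downstream peak among 25 pluripotency factors, 15 genes of DNA methylation and demethylation, 47 of RNA polymerase II, Mediator and elongation, or 53 of Nodal, BMP, FGF, Wnt and Hippo signalling, where 1, 1, 4 and 9 genes had a promoter peak. Among all protein-coding genes 1201 of 20780 had a promoter peak. None of the lists was tested, and these counts are descriptions.

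Among gene families, 12 of 406 genes named Zfp (2.96%) had a downstream peak, and 10 of these 12 peaks overlapped H3K4me3. Their distances ran from 137 bp at Zfp1 to 789 bp at Zfp800, and their tags from 25 at Zfp81 to 47 at Zfp202. The highest fold enrichment was at Zfp963 (8.09-fold, 33 tags), and the lowest at Zfp36l1 (3.3-fold, 46 tags), which despite its name encodes a CCCH-type protein that promotes mRNA decay. Zfp36l1, centred 782 bp downstream, and Zfp280b, at 200 bp, had no H3K4me3 peak. Psmd3, a subunit of the proteasome lid and 1 of 38 proteasome genes, had 56 tags at 3.72-fold, with the summit at -157 bp from the start. Eif4e, the cap-binding initiation factor and 1 of 62 genes of its family, had 23 tags at 4.87-fold at 211 bp. The deubiquitinase genes Usp3 (74 tags, 4.79-fold, 244 bp) and Usp35 (57 tags, 5.58-fold, 295 bp) were 2 of 53. No cytosolic ribosomal protein gene of 87 and no histone gene of 70 had one, while 4 and 0 had promoter peaks, against 1201 of all 20780 protein-coding genes. Read against all gene types, of 1421 genes with small RNA names (such as Mir or Snor) 1 (0.0704%) was assigned a peak, Mir7014, with 29 tags at 639 bp, past the end of the transcript and without H3K4me3. The miRNA genes Gm23840 and Gm27878 and the misc_RNA gene Gm23642, which also had downstream peaks, carry Gm names and are counted with the next group. Of 26565 predicted genes with Gm or Rik names 43 (0.162%) had one.

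The downstream class depended on the annotation used for the starts. With RefSeq transcripts of the same assembly 569 peaks were chosen, of which 330 were among the 478 (69.0%), and with starts of protein-coding transcripts only 593 were chosen, of which 431 were among them (90.2%). By chromosome, downstream peaks made up from 7.27% of the ASH2L peaks on chromosome 14 (4 of 55) to 24.1% on chromosome 19 (20 of 83).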

How the data were processed

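CUT&RUN was performed on HA-ASH2L and parental E14 cells. According to the methods and the submitters' processing notes, the authors aligned reads to mm10 with Bowtie2, handled alignments with SAMtools 1.5 and bedtools, merged duplicates, and ran MACS 1.4 (1.4.3 in the headers) on the merged data, and HOMER 4.10 is also listed. The headers of the deposited lists give no control library, a p-value cutoff of 1e-05 and tag sizes of 151 bp (ASH2L) and 142 bp (H3K4me3), both longer than the fragment limit in the methods. It is therefore not settled which fragments were counted. The deposited tag counts are whole numbers in each peak, not normalized. Fold enrichment, as deposited, is a ratio to the background modelled by the authors' peak caller from the same library, and the deposited score is -10 times log10 of its p-value, which is 50 at the cutoff. Other deposited columns give the peak's position and summit. Whether any listed sequence gathers tags with any antibody was not tested.

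Here, midpoints were placed against GENCODE vM21 starts (GRCm38), each peak was assigned the nearest start in the window, and an overlap needed 1 bp. Sequence windows of 50 bases to either side of the summit were read from the RefSeq GRCm38.p6 genome, where soft-masked bases were also counted. No test between groups was possible because the deposited lists hold merged duplicates, so values are descriptions. The class, gene lists and markers were chosen with earlier results of these data known. Named peaks were the 10 with the highest score, the 5 with the highest fold enrichment, the 5 highest-scoring without H3K4me3, the 3 nearest and 3 farthest, the widest, the peaks at genes of the lists and the 2 just outside each edge. Of the peaks at Zfp genes and at Gm or Rik genes only some are named. Rnpep and Ypel2 are named for their sequence windows. For 13 results, 103 alternative values under 14 settings were computed. The procedures were tested on simulated data, where 1000 of 1000 simulated peaks were put in their true class and 145 of 145 downstream peaks at their true distance. Versions were Python 3.11.15, scipy 1.17.1, matplotlib 3.10.9, numpy 2.4.6 and pandas 2.3.3.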

Additional observations from a re-analysis of the deposited data

How the results depend on the processing

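Of 103 alternative values for 13 results, 78 stayed within the interval of the reported value (within 1.5 times for the number of peaks) and 25 did not, and no signed value changed sign. The order of first exon and first intron (46% and 47.1%) turned to 48.9% and 47% with protein-coding starts, and turned likewise with the basic set, with RefSeq, with the window ending at 500 bp, with any transcript in the window and with the summit as the point. With the summit in place of the midpoint the median distance between the summits was -200 bp. With starts of protein-coding transcripts only, the share with H3K4me3 was 94.3% and the CpG ratio 0.877. With the basic transcript set, the share with H3K4me3 was 93.2%, the first exon held 52.8% and the first intron 41.9%, and the relative position was 0.463. With RefSeq transcripts these 4 values were 94.7%, 56.4%, 40.6% and 0.457, and the CpG ratio was 0.874. Among ASH2L peaks at or above the median fold enrichment of 5.37, 220 were downstream, at a median distance of 228 bp, with 76.8% spanning the start, a fold enrichment of 6, a width of 727 bp and 33 tags, of which the selection itself sets the fold enrichment. A window ending at 500 bp gave a share with H3K4me3 of 93.9%, a distance of 226 bp, a relative position of 0.469 and 87.1% spanning the start. Only H3K4me3 peaks at or above their median fold enrichment of 6.46 gave a share of 40.8%. The most distant start gave a distance of 339 bp, and the summit as the point for exon and intron put 42.3% in the first intron. Leaving out the peaks over 50% soft-masked was chosen after seeing the data, and all 13 of its values stayed within the intervals. The cause of these shifts was not tested. No paired analysis was possible because the lists hold merged duplicates and no value for a single sample, and for the same reason no duplicate could be left out. Depth limits the values of single peaks, whose median was 35 tags.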
